A study of Mus musculus with 2 samples.

Results

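The AP-1 and immediate early genes described here are 10 genes of the FOS and JUN families and of the serum-induced early response: Fos, Fosb, Fosl1, Fosl2, Jun, Junb, Jund, Egr1, Ier2 and Ier3. They were selected by name from the 46983 genes of a deposited count table, and each matched 1 Ensembl identifier in the GENCODE annotation of mouse build GRCm38. The table holds 2 RNA sequencing libraries of total RNA from the mouse embryonic stem cell line 46C. One library, labelled linc1557 knockdown, came from cells infected with a pLKO.1 virus that encodes a hairpin against the long noncoding RNA linc1557, and the other, labelled control shRNA, from cells with a control hairpin. Both groups shared the 46C background, growth on feeder cells in serum with the cytokine LIF, and puromycin selection, after which infected clones were picked. How many clones went into a library is not given in the sources used here, so a difference between clones and an effect of the hairpin cannot be told apart. With 1 library per group there was no replicate check and no p-value, and the intervals in brackets are 95% intervals for counting error only.

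FOS and JUN proteins are basic leucine zipper factors that pair to form AP-1, which binds a short palindromic DNA element. JUN proteins can pair with one another, whereas FOS proteins need a JUN partner. Fos, Fosb, Jun, Junb and Egr1 are classical immediate early genes: serum, growth factors and stress switch them on within minutes through MAP kinases, serum response factor (SRF) and its cofactors, without new protein synthesis, and their transcripts decay fast. In embryonic stem cells, ERK signalling that feeds these genes is tied to exit from self-renewal, which LIF and STAT3 sustain.

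Fosb, Fos, Fosl2 and Jun were lower in the knockdown library, Fosl1 and Egr1 lay below the control by less than 2-fold, and Junb, Jund and Ier2 were near equal in both. A gene was called when it differed by at least 2-fold with an interval that excluded 1. By that rule the lower genes numbered 4 of 10, the other 6 were not called and none was higher. Of all 15850 genes with at least 1 CPM, the read count scaled to library size and between libraries by the TMM method, 9.48% were called lower and 4.68% higher. The median log2 ratio of knockdown over control was -0.69 for the 10 genes and 0.02 for all genes that entered. With TMM scaling 9 of the 10 log2 ratios were below 0, against 48.1% of all entered genes, but those of Junb, Jund and Ier2 were -0.04, -0.04 and -0.03 and moved above 0 with DESeq2 size factors or centring by GC content, which leaves 6 below 0. The genes were chosen with earlier results of these libraries known, so the count describes these genes and is not independent evidence. All 10 had at least 1 CPM in both libraries. Feeder fibroblast markers moved in the same direction, with 19 of 30 called lower and a median log2 ratio of -1.28. Their summed level, of which Fn1 was a large and little changed part, was 1.95-fold lower in the knockdown library. The part of feeder cells in the lower levels was not tested. In such bulk libraries, fewer cells of a type and less RNA per cell cannot be told apart.

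**Figure D1:**
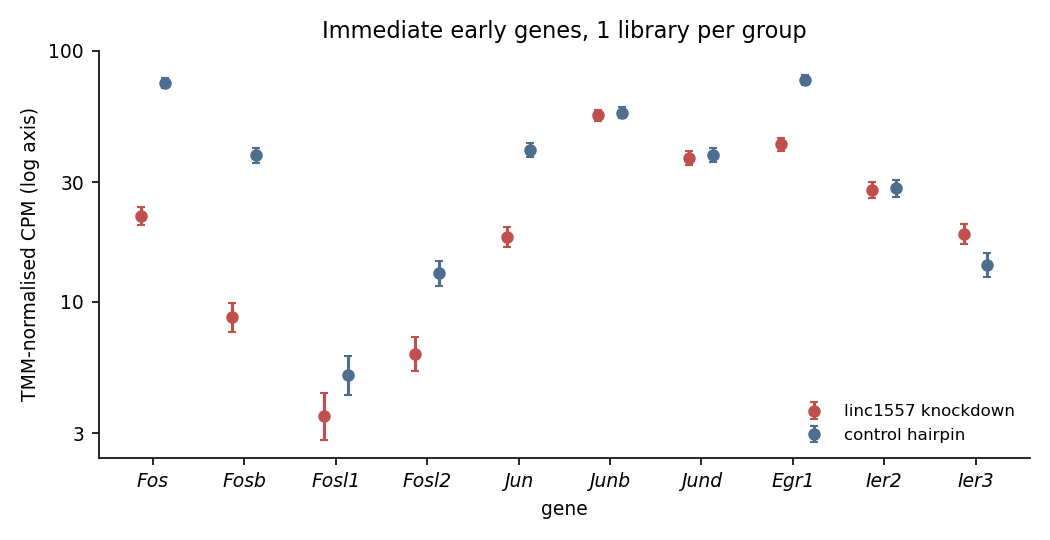
Level of each gene in TMM-normalised CPM on a log axis in the linc1557 knockdown library (red) and the control library (blue); points are single libraries and bars are 95% Poisson intervals for counting error. Fos, Fosb, Fosl2, Jun and Egr1 are lower in the knockdown library with bars well apart, while the points for Junb, Jund and Ier2 nearly coincide.

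The DNA just before a RefSeq start of each of the 4 genes called lower is shown because these genes moved in the same direction. Junb, a JUN gene at equal level in both libraries, is shown beside them. Each line gives the 250 bases before that RefSeq start, 5′ to 3′ on the gene's strand, on GRCm38.p6. Capitals mark matches to the motifs named afterwards. For Fosl2 these bases lie inside the gene as GENCODE annotates it. RefSeq starts were taken for 7 of the 10 genes, and the promoters of Fosl1, Ier2 and Egr1 were not examined. The start of Jund lay 1210 bases from its GENCODE start and was not used.
Fos, chr12:85473640-85473889, plus strand: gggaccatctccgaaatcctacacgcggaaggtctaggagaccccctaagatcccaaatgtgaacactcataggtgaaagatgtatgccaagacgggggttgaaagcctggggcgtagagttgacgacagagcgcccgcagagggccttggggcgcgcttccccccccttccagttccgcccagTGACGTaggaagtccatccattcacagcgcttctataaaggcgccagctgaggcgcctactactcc
Fosb, chr7:19310046-19310295, minus strand: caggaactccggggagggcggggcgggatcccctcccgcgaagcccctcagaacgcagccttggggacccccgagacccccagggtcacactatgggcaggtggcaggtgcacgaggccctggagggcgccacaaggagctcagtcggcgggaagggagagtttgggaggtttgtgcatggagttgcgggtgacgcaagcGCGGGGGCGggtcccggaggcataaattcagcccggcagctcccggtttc
Jun, chr4:95052223-95052472, minus strand: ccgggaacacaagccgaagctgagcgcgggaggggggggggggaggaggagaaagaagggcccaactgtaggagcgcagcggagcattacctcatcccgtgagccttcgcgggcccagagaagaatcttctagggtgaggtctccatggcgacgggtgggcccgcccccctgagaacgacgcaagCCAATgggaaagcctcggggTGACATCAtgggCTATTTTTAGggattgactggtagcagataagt
Fosl2, chr5:32136222-32136471, plus strand: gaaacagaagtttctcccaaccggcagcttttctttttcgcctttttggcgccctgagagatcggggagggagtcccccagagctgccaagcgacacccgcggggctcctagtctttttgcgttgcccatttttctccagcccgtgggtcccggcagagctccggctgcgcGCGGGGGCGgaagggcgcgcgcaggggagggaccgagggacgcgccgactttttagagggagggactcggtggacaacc
Junb, chr8:84978749-84978998, minus strand: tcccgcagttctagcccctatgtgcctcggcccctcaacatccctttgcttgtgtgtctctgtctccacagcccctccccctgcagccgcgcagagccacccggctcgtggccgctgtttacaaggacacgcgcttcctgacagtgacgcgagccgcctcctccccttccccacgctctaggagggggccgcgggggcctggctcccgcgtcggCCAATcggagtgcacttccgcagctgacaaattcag

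Motifs were searched on both strands, in these windows and in the same window of 32817 RefSeq promoters. The Fos window held TGACGT, the core of a cyclic AMP response element, at positions -66 to -61 from the start, a motif found in 6.46% of all windows. The Jun window held TGACATCA, a variant of the AP-1 element, at -45 to -38 (2.93% of windows), a MEF2 box at -33 to -24 (2.92%) and CCAAT at -65 to -61 (33.8%). Fosb and Fosl2 each held GCGNGGGCG, the EGR recognition sequence, at -50 to -42 and at -79 to -71 (4.70% of windows). Junb held CCAAT at -36 to -32 and no other motif searched. The letters TGACTCA (4.46%), TGACGTCA (1.55%, a sequence that contains TGACGT) and the CArG box bound by SRF (1.47%) were in none of the 5 windows shown. Sites farther than 250 bases upstream were not searched, so absence from a window does not mean that a gene lacks the element. The 4 genes called lower had no motif of this search that all 4 windows shared. A match is a run of letters and no measure of binding. The RefSeq start of Fosl2 lies 671 bases downstream of its GENCODE start, so its window and the match in it lie inside the GENCODE gene. The DNA upstream of the GENCODE start of Fosl2 was not searched.

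Among the FOS genes, the largest fold difference was that of Fosb (ENSMUSG00000003545, chromosome 7, 19302696 to 19310051), which encodes a FOS protein known for its role in neurons. It had 222 counts with the linc1557 hairpin and 923 with the control hairpin, or 8.66 and 38.3 CPM. The level was 4.42-fold lower in the knockdown library (3.81 to 5.14), and 2.09% of entered genes had a lower ratio. Fos (ENSMUSG00000021250, chromosome 12, 85473890 to 85477273), the prototype immediate early gene, had 563 and 1789 counts, or 22.0 and 74.2 CPM. It was 3.38-fold lower (3.07 to 3.72), and 3.50% of entered genes had a lower ratio. In both genes the control library was the high one, and the intervals of the ratios lay entirely beyond 2-fold.

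The FOS-related antigens Fosl1 and Fosl2, which lack the strong transactivation domains of FOS and are usually induced later, differed less. Fosl2 (ENSMUSG00000029135, chromosome 5, 32135801 to 32157842) had 159 counts with the linc1557 hairpin and 313 with the control hairpin. It was 2.09-fold lower (1.72 to 2.55), just inside the calling threshold, and its interval reached below 2-fold. Fosl1 (ENSMUSG00000024912, chromosome 19, 5447547 to 5455946) had the fewest counts of the 10 genes, 90 and 123. It was 1.45-fold lower (1.10 to 1.93) and was not called. Fosl1 overlaps Ccdc85b on the other strand, which had 175 and 150 counts, and since the strand setting of the counting is not given, reads of such pairs cannot be told apart.

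In the JUN family only Jun was called. Jun (ENSMUSG00000052684, chromosome 4, 95049034 to 95052222), the strongest transactivator among its relatives and a target of JUN N-terminal kinases, had 466 counts with the linc1557 hairpin and 972 with the control hairpin. Its level was 2.22-fold lower (1.98 to 2.48). The antisense gene Junos, which overlaps Jun, had 15 counts in each library. Junb (ENSMUSG00000052837, chromosome 8, 84974484 to 84978718), which often restrains JUN activity, had 1416 and 1368 counts, or 55.3 and 56.7 CPM. Jund (ENSMUSG00000071076, chromosome 8, 70698949 to 70700616), the member expressed most evenly across cell states, had 958 and 924 counts, or 37.4 and 38.3 CPM. The knockdown over control ratios of Junb and Jund were 0.974 (0.904 to 1.05) and 0.976 (0.891 to 1.07), and both intervals included 1. Junb overlaps the 3′ end of Prdx2 on the opposite strand, which had 3090 and 2894 counts.

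Egr1 (ENSMUSG00000038418, chromosome 18, 34859823 to 34864984) encodes a zinc finger factor induced through SRF and its ETS partners. It had 1088 counts with the linc1557 hairpin and 1842 with the control hairpin and was 1.80-fold lower (1.67 to 1.94). This was the uncalled gene nearest the threshold, with an interval that excluded both 1 and 2-fold. Ier2 (ENSMUSG00000053560, chromosome 8, 84661331 to 84662852), an early response gene that encodes a nuclear protein, had 713 and 683 counts and a ratio of 0.983 (0.883 to 1.09). Ier3 (ENSMUSG00000003541, chromosome 17, 35821684 to 35822923), which is linked to ERK signalling and cell survival, had 478 and 339 counts. Its ratio of 1.33 (1.15 to 1.53) was the only one of the 10 above 1 with TMM scaling, and it was not called.

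**Figure D2:**
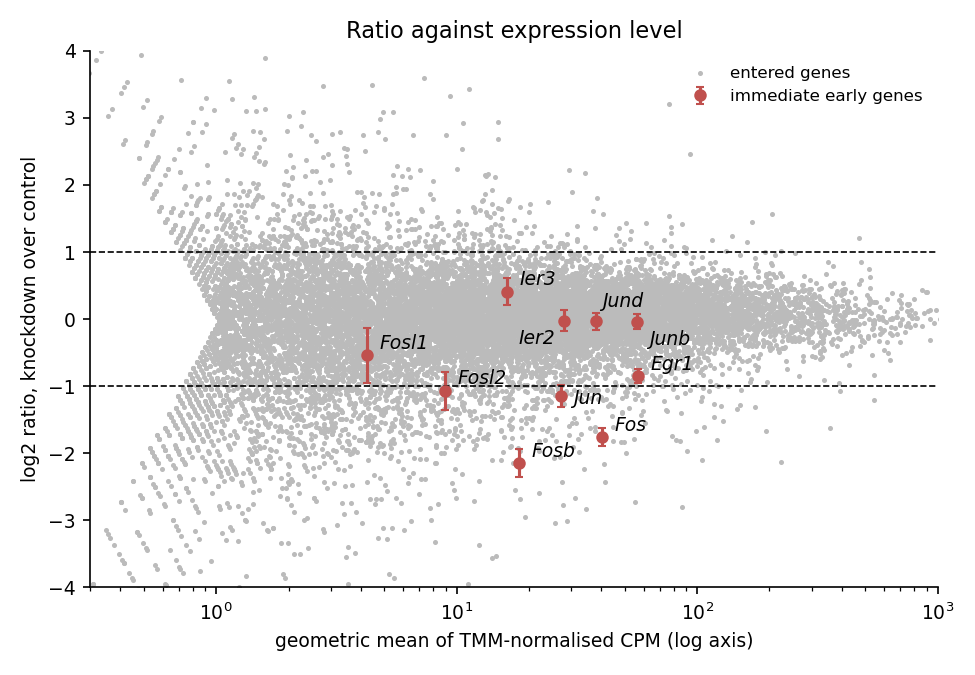
Log2 ratio of knockdown over control against the geometric mean of the TMM-normalised CPM of both libraries (log axis) for entered genes (grey) and the 10 immediate early genes (red, bars are 95% counting intervals); dashed lines mark 2-fold, and genes beyond the axis limits are not drawn. Fosb and Fos lie at -2.14 and -1.76, Jun and Fosl2 just beyond the lower line, Egr1 just above it, and Junb, Jund and Ier2 next to 0.

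Because the ratio of one gene to another within a library does not depend on how libraries are scaled, each gene was also set against Jund. For each Jund read, the control library held 1.94 Fos reads and the knockdown library 0.588, a 3.29-fold difference (2.88 to 3.76). For Fosb it was 0.999 reads against 0.232, a 4.31-fold difference (3.62 to 5.14), and for Jun 1.05 against 0.486, a 2.16-fold difference (1.87 to 2.50). Egr1 was 1.76-fold lower relative to Jund (1.56 to 1.98) and Fosl2 2.04-fold lower (1.64 to 2.54). Junb kept the same proportion to Jund in both libraries, with 1.48 reads for each Jund read and a ratio of ratios of 0.998 (0.887 to 1.12). Ier2 had a ratio of ratios of 1.01 (0.875 to 1.16). Fosl1 was 1.42-fold lower relative to Jund (1.05 to 1.91), whereas Ier3 was higher, with a ratio of ratios of 1.36 (1.15 to 1.61). Jund, as the reference, is set to 1 by construction, and it was taken with its equal level in both libraries known.

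Levels of different genes were compared as TMM-normalised CPM per kilobase, using the gene length in the table. In the control library, Fos at 31.5 and Junb at 30.8 stood highest, and their counting intervals overlapped. Ier2 (18.6) and Egr1 (17.0) followed, again with overlapping intervals, then Jund (13.3), Jun (12.6) and Ier3 (12.4), each overlapping the next. Fosb (10.2), Fosl1 (2.99) and Fosl2 (1.34) were lowest, each apart from its neighbours. In the knockdown library Junb stood alone at the top with 30.04. Fos came sixth, at 9.34, beside Egr1 at 9.47 with overlapping intervals, and Fosb at 2.31 overlapped Fosl1 at 2.06. This order depends on the lengths used, which for Jund are 2878 bases in the table and 1668 in its principal GENCODE transcript. With GENCODE transcript lengths, a setting added after seeing the data, Jund stood at 23.0 in the control and 22.4 in the knockdown library, above Ier2 and Egr1 in both. Fos, at 35.2, then stood alone above Junb, at 31.4, in the control library.

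Summed over its 4 genes, the FOS family had 14.4 CPM per kilobase with the linc1557 hairpin and 46.1 with the control hairpin, a 3.21-fold lower level. The JUN family had 48.7 and 56.8, a 1.17-fold lower level. There was 0.295 FOS per JUN transcript signal in the knockdown library and 0.811 in the control library on this scale. Fos made up most of the FOS signal in both libraries, with 65.1% in the knockdown and 68.5% in the control. The share of Fosb was 16.1% in the knockdown against 22.1% in the control, and that of Fosl1 was 14.3% against 6.49%. Within the JUN family, Jun took 11.7% of the knockdown and 22.3% of the control signal, Junb 61.6% and 54.3%, and Jund 26.7% and 23.4%. These shares rest on the same gene lengths. With GENCODE transcript lengths Jund took 38.2% and 34.3% of the JUN signal, and Jun 9.72% and 18.9%. The lower share of Jun in the knockdown library was present with both sets of lengths.

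**Figure D3:**
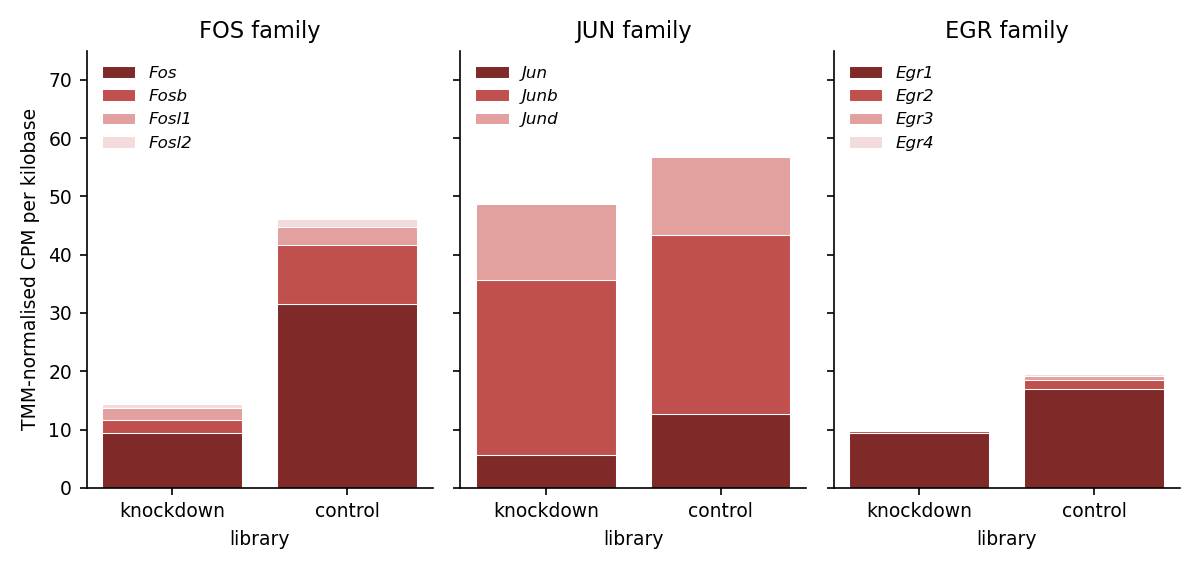
Summed TMM-normalised CPM per kilobase of the FOS, JUN and EGR families in the knockdown and the control library, 1 library each, with bars divided by gene. The FOS bar is 14.4 for the knockdown and 46.1 for the control, whereas the JUN bars are 48.7 and 56.8.

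The 10 genes lie on 8 chromosomes, and Junb, Jund and Ier2 share chromosome 8. Neighbours of the genes called lower were compared to see whether a wider region had moved. Within 500 kb of Fos, 16 other genes entered, of which 1 was lower and none higher, with a median log2 ratio of 0.09. The AP-1 repressor gene Jdp2, the first entered gene after Fos, had 172 counts with the linc1557 hairpin and 108 with the control hairpin (log2 ratio 0.58). Within 500 kb of Fosb, 1 of 43 genes was lower and 0 were higher, and their median was -0.06. None of the 9 genes around Fosl2 and none of the 7 around Jun was called, with medians of 0.41 and 0.20. Most of the genes around Fos, Fosb, Fosl2 and Jun were not called lower. The same holds for genes at large, of which 9.48% were called lower, and a regional cause was not tested.

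Immediate early genes are compact, and many carry AU-rich elements in the 3′ untranslated region, which speed decay of the transcript. The 10 genes had 1 to 4 exons in their principal GENCODE transcript, against a median of 7 for entered genes. The pentamer ATTTA, the core of AU-rich elements, occurred at least once in the 3′ region of 9 of the 10 genes, all but Ier2, and in 66.9% of 13175 entered genes with such a region. Per kilobase of 3′ region it occurred 8.12 times in Ier3, 4.89 in Fos, 4.10 in Junb, 3.24 in Jun and 0.466 in Fosb, against a median of 1.24. The others had 1.87 (Jund), 1.72 (Fosl2), 1.64 (Egr1), 1.56 (Fosl1) and 0 (Ier2). The 30 bases of the 3′ region with the most pentamers are shown for Fos, Jun and Ier3, 2 genes called lower and the gene with the highest density, with ATTTA in capitals.
Fos: aacgtttttattgtgttttcaATTTATTTA
Jun: gtgatcATTTAtaatcataggaaagATTTA
Ier3: ctccgtgtctaattaatATTTAtgtATTTA

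Most of the wider early response was not called. Of 45 further immediate early genes listed, 39 entered, 4 were lower (10.3%) and 1 was higher (2.56%), shares near those of all genes, and the median log2 ratio was -0.11. Lower were Egr2, a relative of Egr1, at 5.49-fold (24 against 124 counts), Gadd45g, a growth arrest gene, at 3.52-fold (73 against 242), and Ccn1 at 2.94-fold (453 against 1252). The remaining one, named after its value was seen, was Ccn2 at 2.44-fold (695 against 1599). Ccn1 and Ccn2 encode secreted matrix proteins that are known targets of SRF and YAP. The chemokine gene Cxcl1 was 6.92-fold higher (5.02 to 9.75), with 316 against 43 counts. Not called were, among others and named with their values in view, the phosphatase gene Dusp1 (log2 ratio -0.32), the orphan receptor gene Nr4a1 (-0.17), Zfp36, whose protein binds AU-rich elements (-0.16), and Myc (0.02).

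Of the 4 EGR genes only Egr2 was called. Egr3 had 4 counts with the linc1557 hairpin and 23 with the control hairpin and Egr4 had 2 and 17, both under 1 CPM in each library and therefore outside the calls. Their fold differences were 6.11 (2.09 to 24.3) and 9.03 (2.14 to 80.6). Summed per kilobase, the family had 9.89 CPM with the linc1557 hairpin and 19.5 with the control hairpin, of which Egr1 made up 95.7% and 87.1%. Egr3 and Egr4 were named after their values were seen.

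The transcript of Srf was lower too. Its counts do not measure SRF protein or activity, and the part of Srf in the lower Fos, Fosb, Fosl2 and Jun levels was not tested. Srf had 783 counts with the linc1557 hairpin and 1573 with the control hairpin and was 2.13-fold lower (1.96 to 2.33). It was the only one of 6 entered genes for SRF, its MRTF cofactors and the ternary complex factors to be called (16.7%, against 9.48% of all genes called lower). The others ranged from -0.69 to 0.43 on the log2 scale, with Mrtfb at -0.69, Elk1 at 0.22 and Elk4 at 0.43. Among 28 entered kinase genes of the RAS, ERK, JNK and p38 routes, 1 was lower (3.57%) and 0 were higher, and their median was -0.16. The one called was Map3k5, a stress-activated kinase also called ASK1, at 4.67-fold lower from 30 against 132 counts. Transcript counts carry no measure of kinase phosphorylation.

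Of 24 entered genes for other leucine zipper partners and relatives of AP-1, 1 was lower and 1 was higher, with a median of 0.20. Maf was 6.66-fold lower (11 against 69 counts) and Creb5 3.70-fold higher (275 against 70 counts). Atf3, a stress-induced partner of JUN, had 147 and 126 counts, and Maff had 309 and 317. Neither was called.

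Genes known as AP-1 targets went both ways. Of 22 that entered, 4 were higher (18.2%, against 4.68% of all genes) and 2 were lower (9.09%, against 9.48%), with a median of -0.17. The higher genes were all matrix metalloproteinases: Mmp9 at 4.72-fold (3.64 to 6.19), Mmp10 at 3.20-fold (2.40 to 4.32), Mmp13 at 3.16-fold (2.40 to 4.20) and, named after its value was seen, Mmp3 at 2.56-fold (2.32 to 2.82). Mmp3, Mmp10 and Mmp13 belong to 1 gene cluster on chromosome 9, so they are not separate loci. Lower were Mmp14, the membrane-bound family member, at 3.12-fold (328 against 962 counts) and S100a6, also named after its value was seen, at 2.03-fold. Mmp3 had 1537 counts with the linc1557 hairpin and 566 with the control hairpin, the direction opposite to that of Fos and Jun.

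**Figure D4:**
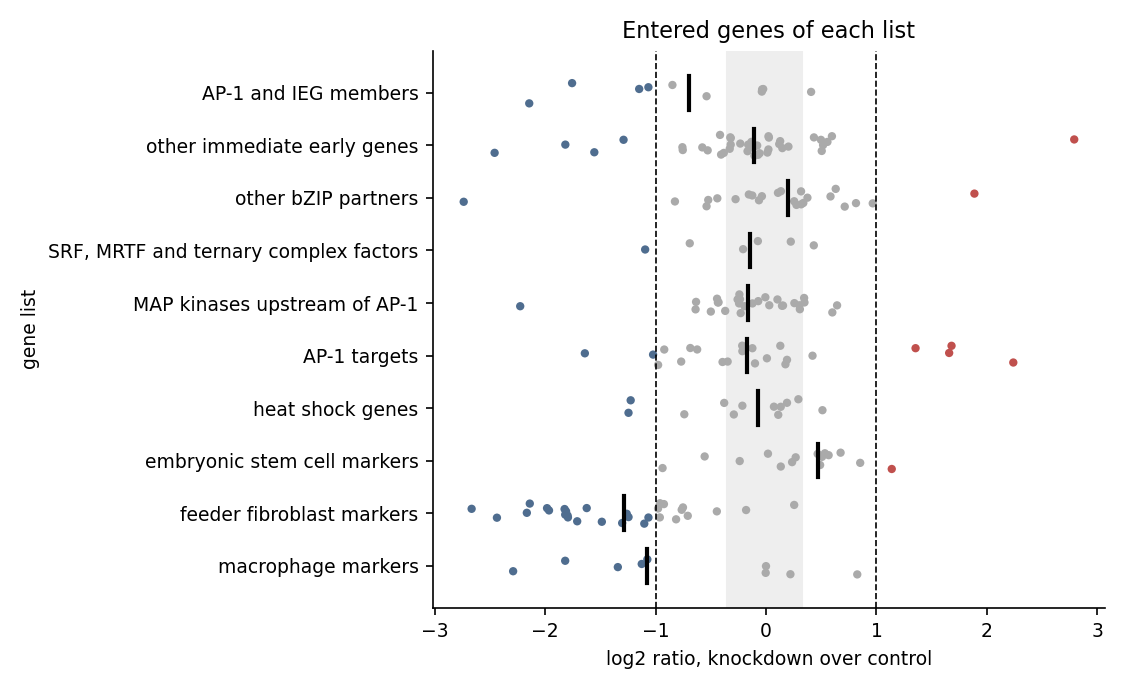
Log2 ratio of knockdown over control for the entered genes of each list, coloured blue where called lower, red where called higher and grey where not called; black bars are list medians, the shaded band holds the middle quartiles of all entered genes and dashed lines mark 2-fold. The immediate early genes described here have a median of -0.69, the further immediate early genes -0.11 and the feeder fibroblast markers -1.28.

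The libraries also differed in markers of feeder cells and of other cells that the cultures could contain. Fibroblasts, the usual feeder cells, also express Fos, Jun, Srf, Ccn1 and Ccn2 in serum. Of 30 feeder fibroblast markers, 19 were lower, none was higher and none was at 0 in either library. Their summed level was 2174 CPM with the linc1557 hairpin and 4242 with the control hairpin (1.95-fold lower). Fn1, which was not called (ratio 0.883), supplied 1058 and 1199 CPM of these sums. Thbs1, which was 3.08-fold lower, supplied 204 and 628 CPM, so single abundant genes weigh on the summed ratio in both ways. The median log2 ratio of the 30 markers was -1.28. Timp3 was 6.34-fold lower, Col6a3 5.41-fold, Col3a1 4.48-fold and Col6a2 4.40-fold. The 11 markers not called included Thy1 (ratio 0.514), Pdgfra (0.514) and Lum (0.735). Of the 30 log2 ratios 29 were below 0, and the exception was Dcn (ratio 1.19, 1.05 to 1.36). Of 12 macrophage markers 9 entered, 5 were lower and none was higher, and none was at 0. Their sums were 44.9 and 60.4 CPM, and the lower genes were Csf1r, Ctss, Lyz2, Fcgr3 and, named after its value was seen, Ptprc. Apart from Lyz2 (272 counts with the linc1557 hairpin against 539) these rest on few reads. Csf1r had 15 against 69 counts, Ctss 22 against 73, Fcgr3 13 against 31 and Ptprc 19 against 39. The other 4 that entered were not called: Adgre1 had 81 counts with the linc1557 hairpin against 43 (ratio 1.77, 1.21 to 2.63), and the ratios of Cd68, Itgam and Laptm5 were 1.17, 1.00 and 0.998. The part of macrophages in the lower Fos, Fosb, Fosl2 and Jun levels was likewise not tested.

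The embryonic stem cell markers Pou5f1, Sox2 and Nanog were high in both libraries, at 331 and 301, 228 and 225, and 243 and 201 CPM in the knockdown and control library. Of 15 such markers 1 was higher, Tbx3 at 2.20-fold, and none was lower. Their median log2 ratio was 0.47, and 3 of the 15 lay below 0. Among those not called, Tdgf1 had a ratio of 1.81 (1.76 to 1.85), whereas Lin28a was 1.91-fold lower (1.84 to 1.99). Heat shock genes, which handling stress induces together with Fos and Jun, were also examined. Of 12, only Hspa1b and Hspa1a were called, 2.37-fold (139 against 310 counts) and 2.34-fold (90 against 198 counts) lower, and none was higher. Their sequences are almost the same, so how their reads were divided is uncertain. The part of handling before RNA extraction was not tested. The knockdown library had 26693282 total counts and the control 23146210. The target linc1557 was not analysed here, so the labels stand without a check of the knockdown.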

How the data were processed

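The authors used featureCounts, HISAT2, Trim Galore and DESeq with builds mm10 and GRCm38, per the submitters' processing notes. For versions, annotation release and strand setting the sources used here say nothing. The deposited table holds raw read counts per Ensembl gene for 2 libraries and a gene length. Symbols, positions and transcripts came from GENCODE M21 (GRCm38), which matched 46488 of 46983 identifiers, and promoters from RefSeq (GRCm38.p6).

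Counts were scaled by TMM factors (knockdown 0.960, control 1.04) from edgeR 4.0.16, run under R 4.3.3, and ratios were taken in Python 3.11.15 with scipy 1.17.1. Genes with at least 1 CPM in either library entered. Ratios used no pseudocount, a count of 0 was set to 3, and 95% intervals are exact Clopper-Pearson, or Poisson for single levels. Reads without molecular identifiers are not independent molecules, so intervals cover counting error only. A gene was called at a ratio of at least 2-fold with an interval that excluded 1. The rule was tried on simulated Poisson counts, which hold counting error alone. That trial cannot show how often the rule errs when cultures or clones differ. DESeq2 1.42.0 size factors and 11 other planned settings were tried.

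The genes and lists were chosen with earlier results of these data known. Named genes are the 10, and of each list up to 4 called genes with the largest change by the nearer bound of the interval, or the 2 most abundant where none was called. All other genes named were chosen after their values were seen, whether or not the text says so beside them.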

Additional observations from a re-analysis of the deposited data

How the results depend on the processing

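The count of 4 immediate early genes called lower and none called higher was the same with total-count scaling, DESeq2 size factors, TMM on nuclear protein-coding genes, a filter at 5 CPM or none, thinning to equal totals, a prior count of 2, and centring by expression, gene length or transcript GC content. The filters could not change this count, since each of the 10 genes had at least 5 CPM in the control library. With a threshold of 1.5-fold, 5 were lower, since Egr1 (log2 ratio -0.85) then passed. With 4-fold, 1 was lower, Fosb, and Fos (-1.76), Jun (-1.15) and Fosl2 (-1.06) no longer passed. Over the 12 settings the log2 ratio ranged from -2.26 to -2.04 for Fosb, from -1.87 to -1.72 for Fos, from -1.27 to -1.09 for Jun and from -1.18 to -1.02 for Fosl2. The ratios of Junb, Jund and Ier2 were below 0 in 10 of 12 settings and above 0 in the others, so no direction can be given for them. Filters and fold thresholds leave a ratio as it is, so those settings could not change its sign. Of all genes, 728 were lower and 330 higher with the filter at 5 CPM, 2598 and 1817 at 1.5-fold, and 389 and 152 at 4-fold, against 1503 and 742. Those changes follow from testing fewer genes or from the threshold itself. Family shares without length correction put Fos at 54.4% (knockdown) and 56.8% (control) of the FOS counts, and Jun at 16.4% and 29.8% of the JUN counts. Shares with GENCODE transcript lengths were added after seeing the data. Scaling by total counts moved the median of all genes to -0.10. No paired analysis was possible because each group has 1 library. Depth limits Fosl1, Egr3 and Egr4 most, whose intervals are wide, and the spread between cultures or clones was not measured.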
